A study of Drosophila melanogaster with 6 samples.

Results

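The Cpr genes encode cuticle proteins of Drosophila melanogaster. All features whose symbol starts with Cpr followed by a digit were taken, which gave 70 members of the 16496 features measured. Proteins of this family carry the Rebers and Riddiford consensus, a stretch that binds chitin, and with chitin they build the procuticle of larva, pupa and adult. In a pupal leg the epidermis first secretes a thin pupal cuticle and later, beneath it, the adult cuticle with its joints and bristles, and pulses of the hormone ecdysone time the switch between them. The role of most single members is not known, so they are described by the age, cell class and region in which their level was highest.

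RNA of single cells was counted in the foreleg's first tarsal segment of pupae, with a droplet method that tags every captured transcript with a barcode of its own, its unique molecular identifier (UMI). The 6 libraries were females and males at 12 h after puparium formation, males at 16 h, 20 h and 36 h, and females at 24 h, with 65 to 70 segments pooled per collection. Animals of 12 h, 20 h and 36 h were dsx-GAL4 > UAS-mCherry, in which the doublesex driver marks cells that express this sex-determination gene, and those of 16 h were dsx-GAL4 > UAS-GFP. The 24 h females were RAL-517, with no driver named. Dissociation took 35 min, and 45 min at 36 h, so age, genotype and dissociation differ together in several pairs and cannot be told apart there. Each combination of age and sex is 1 library, so no test was possible, each value describes its library, and intervals are 95% counting intervals.

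After filtering, 9709 to 12376 cells remained per library, with 59126208 UMIs at 16 h and 103631925 to 154521874 in the other libraries. Pairs of libraries shared 19 to 40 cell barcodes, at most 0.384% of cells. Cells of clusters named epithelium-like from 10 markers (grh, shg, crb and 7 others) made up 51.2% to 75.2% of a library. A further 9.96% to 22.6% of cells had no class name, among them clusters that carried 9 or 10 of these markers. A level is the UMIs of a gene per 1000000 UMIs of the cells summed (CPM). It counts transcript ends and is not divided by gene length, so members are compared per molecule only. In such sums, fewer cells of a type and less RNA per cell cannot be told apart. Series of 6 values are given in order of age, with the female before the male at 12 h.

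Members held 2.25%, 2.59%, 2.10%, 0.911%, 1.31% and 0.300% of all UMIs. The share was lowest in the 36 h library. Cpr72Ea alone held 42.8% and 42.5% of the family's UMIs at 12 h, 92.5% at 16 h, 86.0% at 20 h and 90.5% at 24 h. At 36 h Cpr73D led with 47.2%. Cpr72Ea, Cpr100A and Cpr51A together made up 92.1% and 91.6% of the family's UMIs at 12 h, so a few genes carried most of the family's RNA.

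**Figure D1:**
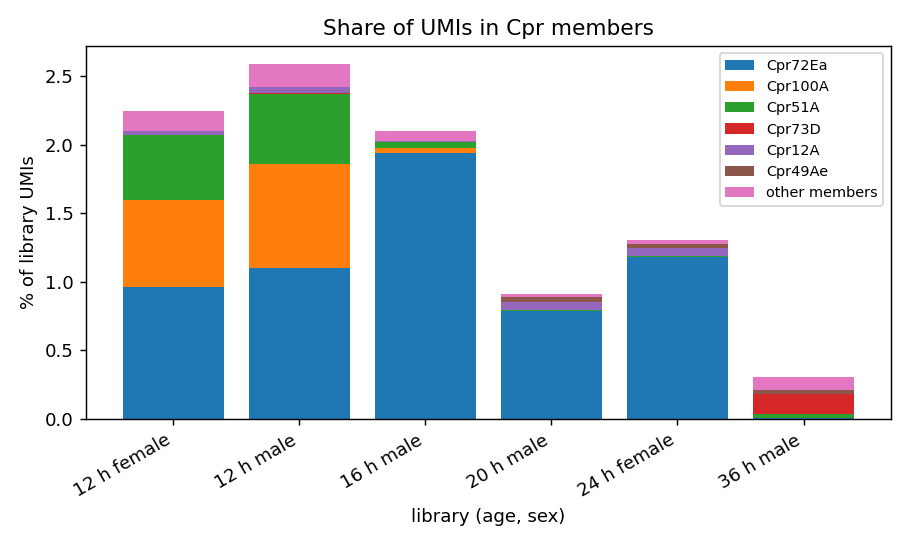
Share of all UMIs held by Cpr members in each library, in percent, with 6 abundant members stacked in colours and the other members on top. Cpr72Ea, Cpr100A and Cpr51A fill most of the 12 h bars, Cpr72Ea most of the 16 h to 24 h bars, and the 36 h bar is low at 0.300% and led by Cpr73D.

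Of the 70 members, 51 reached 20 UMIs in their highest library and were put in the age class of that library. The other 19 stayed under this minimum there, and 55 of the 70 had a UMI in every library. Just inside it, Cpr60D had 30 UMIs in the 24 h female and Cpr76Bd 37 in the 20 h male, and just outside it, Cpr64Ac and Cpr78Ca each had 19 at 16 h. Cpr65Ax1 and Cpr57A had 0 UMIs in all libraries, which allows 0.0194 to 0.0507 CPM at a floor of 3 counts. Cpr65Ax1 has a neighbouring gene, Cpr65Ax2, with a protein of equal length, 102 residues, and their sequences were not compared. Cpr57A shares 1488 exonic bases with Obp57d on the same strand. Counts of these genes are therefore uncertain.

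15 members were highest at 12 h, the age class of 31.6% of all 11313 features with enough UMIs. 17 members were highest between 16 h and 24 h, against 37.3% of all features, and 19 were highest at 36 h, against 31.1%. These are 29.4%, 33.3% and 37.3% of the 51 members, so the split over ages was near that of all features. The size of the contrast lay further from them. In 31 of 51 members the highest library was at least 2-fold above every library of the other age classes, against 25% of all features, and in 12 members at least 10-fold, against 3.54%. The median fold was 2.55 over members and 1.36 over all features, with 0.5 counts added to both sides. These all-feature values were not split by age class, so contrasts within a single class have no background of their own.

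**Figure D2:**
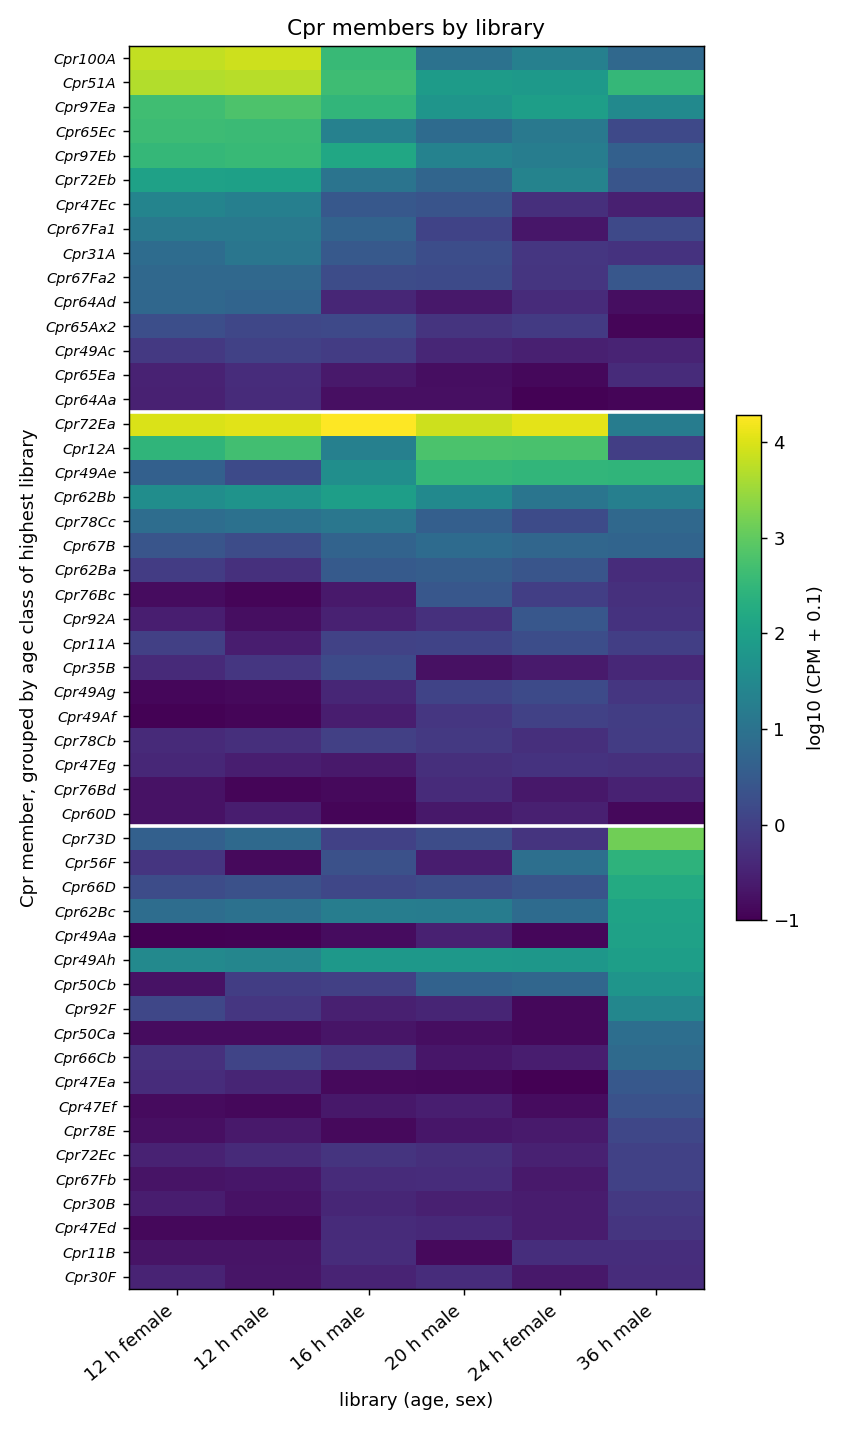
Level of the 51 members with at least 20 UMIs in each library, as log10 of CPM with 0.1 added, with white lines between members highest at 12 h (top, 15 members), 16-24 h (17) and 36 h (bottom, 19). Cpr100A and Cpr65Ec are low after 12 h, Cpr72Ea is high until 24 h and low at 36 h, and Cpr73D, Cpr66D and Cpr49Aa are high in the last column.

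The 12 h class held 6 members over 100 CPM. Cpr100A, at 3R 30867521-30869184 of build BDGP6 on the plus strand, was at 6322, 7550, 367, 9.78, 20.4 and 5.90 CPM. Both 12 h libraries lay far above all others, and the male was 20.6-fold over the 16 h male. Cpr51A was at 4788, 5165, 442, 81.4, 72.8 and 326 CPM. It was high at 12 h too, but its 36 h level, from 33777 UMIs, was again 2.00 log2 units above that at 20 h. Cpr65Ec was at 422, 409, 20.6, 7.13, 13.8 and 1.39 CPM, and its 12 h female was 20.4-fold over the 16 h male.

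Cpr97Ea and Cpr97Eb lie 1925 bases apart on chromosome arm 3R, and both were still high at 16 h. Cpr97Ea was at 463, 638, 309, 57.3, 93.8 and 32.8 CPM, and Cpr97Eb at 334, 366, 143, 21.8, 17.4 and 4.03 CPM. In both genes the 16 h male lay between the 12 h libraries and the later ones, with contrasts of 2.06-fold and 2.55-fold to it. Cpr72Eb was at 104, 103, 10.8, 5.24, 23.2 and 2.40 CPM, so the 24 h female came next after 12 h.

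Other 12 h members had lower levels. Cpr47Ec was at 24.3, 18.9, 2.81, 2.28, 0.414 and 0.193 CPM, and Cpr64Ad at 5.76, 4.96, 0.271, 0.115, 0.349 and 0.0579 CPM. Neither had a later library near its 12 h levels. Cpr31A was at 7.37 and 11.8 CPM at 12 h and at 0.502 to 2.93 CPM later. Cpr65Ax2 was 1.27-fold above the 16 h male with overlapping intervals. In all, 12 of the 15 members had a 12 h interval clear of every later library, 12 were past 2-fold and 4 past 10-fold, with a median fold of 4.03. Clear intervals were not counted over all features, for this or the other age classes, so their counts have no background. At these depths small differences can be clear, such as 1.14-fold for Cpr49Ae.

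In the 16-24 h class the most abundant member of the family had a wide plateau. Cpr72Ea, at 3L 16362603-16363750 on the plus strand, was at 9623, 11034, 19430, 7834, 11805 and 16.8 CPM. It was abundant in the first 5 libraries, the 16 h male being 1.76-fold over the 12 h male, and low at 36 h. It had 815718 UMIs at 20 h and 1741 at 36 h, a log2 ratio of -8.86.

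Cpr12A, at X 13543643-13544907 on the plus strand, was at 287, 493, 20.0, 603, 580 and 0.859 CPM. The 16 h male was low between high levels at 12 h and 20 h, with a log2 ratio of -4.62 to the 12 h male and of 4.91 for the 20 h male over it. In epithelium-like cells alone the levels were 395, 780, 24.1, 797, 697 and 1.48 CPM, so the dip was there too. The 16 h library carries another reporter and was shallower, with a median of 5114.5 UMIs per cell against 10358 at 20 h, and their part in the dip was not tested.

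Cpr49Ae, at 2R 12402216-12405108 on the plus strand, was at 4.18, 1.43, 41.2, 336, 302 and 294 CPM. The last 3 libraries lay close together and far above the first 3, so its class rests on a 1.14-fold difference. Cpr62Bb was at 39.8, 51.4, 93.9, 32.5, 11.5 and 19.2 CPM, highest at 16 h by 1.83-fold over the 12 h male.

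Members with a narrow window at 20 h or 24 h had low levels. Cpr76Bc was at 0.0479, 0.0156, 0.135, 2.63, 0.841 and 0.454 CPM. Cpr92A was at 0.184, 0.0545, 0.203, 0.451, 2.60 and 0.482 CPM, 5.33-fold higher at 24 h than at 36 h. Cpr62Ba was at 0.766, 0.444, 3.06, 3.47, 2.37 and 0.367 CPM, so 16 h to 24 h all lay above 12 h and 36 h. Of the 17 members of this class 5 passed 2-fold, 0 passed 10-fold and 12 had clear intervals, with a median fold of 1.59. The shares of all features, over the age classes together, were 25% past 2-fold and 3.54% past 10-fold. Without the 16 h male, Cpr62Bb, Cpr78Cc, Cpr35B and Cpr78Cb went to other age classes, and without the 24 h female Cpr92A, Cpr49Af, Cpr47Eg and Cpr60D did.

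Among members, the 36 h class had the widest contrasts of the 3, with a median fold of 7.39. There 8 of 19 members were past 10-fold and 16 had clear intervals. Of all features, 3.54% were past 10-fold over the age classes together. That share was not taken by class, so the order of the classes is given without a background. Cpr73D, at 3L 16939100-16957689 on the minus strand, was at 4.04, 6.40, 0.947, 1.57, 0.537 and 1418 CPM. The 36 h male was 222-fold over the 12 h male, the next highest. The gene shares 294 exonic bases with genes of the other strand, and the sources used here do not say whether counting used strand.

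Cpr49Aa, at 2R 12376626-12377378 on the plus strand, had 0, 1, 3, 21, 4 and 11234 UMIs, which is 108 CPM at 36 h and at most 0.202 before, a 525-fold contrast. Cpr56F, at 2R 20288371-20291945 on the minus strand, was at 0.567, 0.0389, 1.91, 0.163, 8.50 and 262 CPM. Cpr66D, whose protein is known from the corneal lens of the eye, was at 1.56, 1.98, 1.25, 1.61, 2.21 and 170 CPM. All 3 were highest in the 36 h male by more than 10-fold, and Cpr56F had a smaller level at 24 h.

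Other 36 h members were present earlier. Cpr62Bc was at 7.71, 9.15, 17.2, 16.2, 6.99 and 120 CPM, a 6.96-fold contrast. Cpr50Cb was at 0.0798, 0.801, 0.896, 4.51, 5.44 and 56.1 CPM, and Cpr49Ah at 30.4, 27.0, 65.1, 67.5, 62.8 and 91.2 CPM. Cpr49Ah was thus well measured at every age and had a small contrast, 1.35-fold. Cpr50Ca was at 8.01 CPM at 36 h and at most 0.101 before, and Cpr66Cb at 6.62 CPM against at most 1.09. Cpr72Ec, the family's other gene known for a lens protein, was at 0.965 CPM at 36 h and lower before.

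**Figure D3:**
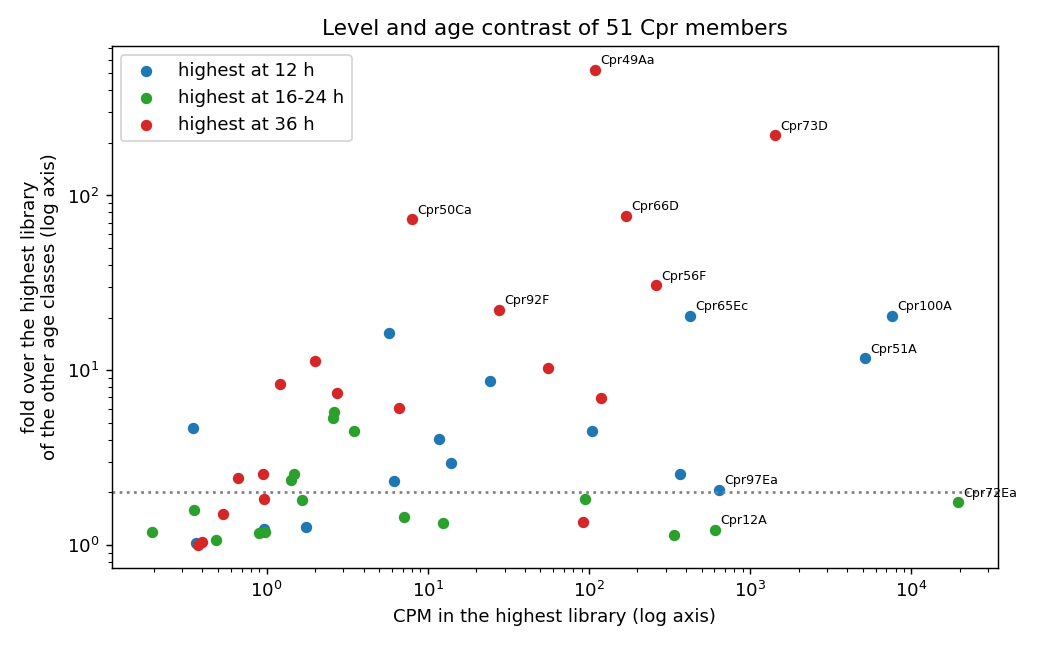
For each of the 51 members, CPM in its highest library (x axis, log scale) and the fold of that library over the highest library of the other age classes (y axis, log scale), with 0.5 counts added; colours give the age class and the dotted line marks 2-fold. Cpr49Aa at 525-fold and Cpr73D at 222-fold are highest, while Cpr72Ea and Cpr12A have high levels and lie under the line.

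Pairs of libraries give the steps in turn, where a member counts past 2-fold if the higher library has at least 20 of its UMIs. From the 12 h to the 16 h male, 11 of 40 members were higher and 18 lower, against 12.9% and 10.8% of all features. From 16 h to 20 h, 10 of 44 were higher and 16 lower, against 10.1% and 15%. From 20 h to 36 h, 19 of 49 were higher and 10 lower, against 21.3% and 13.8%. The members' shares lay above those of all features in both directions at each step. Among members that reached 200 UMIs in either library, Cpr12A, Cpr100A and Cpr65Ec were the furthest down at 16 h and Cpr49Ae the furthest up (log2 ratio 4.84). At 20 h Cpr100A was the furthest down (-5.23) and Cpr12A, by then high again, the furthest up (4.91). At 36 h Cpr12A was the furthest down (-9.45) and Cpr56F (10.60), Cpr73D (9.82) and Cpr49Aa (9.04) the furthest up.

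From the 12 h to the 36 h male, 28 of 51 members were higher and 18 lower, against 30.8% and 28.1% of all features. The median log2 ratio was 1.58 over members and -0.02 over all features. In females, 15 of 47 members were higher at 24 h than at 12 h and 22 lower, against 13.5% and 15%, in a pair that also differs in strain. Cpr49Ae (log2 ratio 6.17) and Cpr50Cb (6.02) were the furthest up there among members with at least 200 UMIs, and Cpr100A (-8.28) the furthest down. Cpr49Ae and Cpr50Cb were also higher at 20 h than at 16 h in males, by 3.03 and 2.32 log2 units.

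Both sexes were measured at 12 h in 1 genotype. There 2 of 40 members were higher in the male, against 3.93% of all features, and 6 lower, against 9.85%, near the background. Cpr49Ae was at 4.18 CPM in the female and 1.43 in the male, a log2 ratio of -1.54 with an interval of -1.80 to -1.30. Cpr50Cb had 10 UMIs in the female and 103 in the male, of which 100 lay in 19 socket-like cells. Cpr66Cb had 55 and 140 UMIs, Cpr56F 71 and 5, and Cpr11A, a gene of the X chromosome, 114 and 22. The remaining lower members were Cpr92F, Cpr92A and Cpr30F, with 155, 23 and 29 UMIs in the female. Sex and library cannot be told apart here.

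To place members in cell classes, each library was clustered without the Cpr genes and clusters were named from marker lists, so "like" marks a name by markers. Epithelium-like cells held the family at 3.08%, 3.96%, 2.96%, 1.19%, 1.67% and 0.350% of their UMIs. Hemocyte-like cells, blood cells that make no cuticle, held 0.444%, 0.335%, 0.330%, 0.106%, 0.131% and 0.0248%, given for reference. Glia-like cells held 0.182%, 0.204%, 0.126%, 0.0400%, 0.0569% and 0.0228%, which is less before 36 h. The hemocyte-like level is therefore not a common background of the other classes, and its source was not tested. In the 12 h female Cpr72Ea was at 13389 CPM in epithelium-like and 2321 in hemocyte-like cells, whose median depths were 11681.5 and 3911 UMIs.

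A member was called high in a class with at least 20 UMIs there and at least 2-fold over all other cells of the library. In epithelium-like cells 16 of 30, 19 of 29, 11 of 25, 20 of 35, 17 of 33 and 20 of 43 members were high, against 8.13%, 9.24%, 4.05%, 7.13%, 8.52% and 7.18% of all features. In all, 36 members were high there in at least 1 library. In neuron-like cells 0 members were high of 8, 8, 4, 8, 3 and 7 counted, against 16.4%, 15.6%, 31.2%, 26.1%, 26.7% and 41% of all features.

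The members of the epithelium differed in how sharply they were set off. Cpr78Cc was 9.86-fold and 17.5-fold over other cells at 12 h and 22.0-fold at 20 h. Cpr49Ae was 15.9-fold and 16.3-fold at 12 h and 16.5-fold at 24 h. Cpr12A was at 797 CPM in epithelium-like cells at 20 h and 60.8 in the others. At 36 h Cpr66Cb was at 11.3 CPM in them against 0.680, Cpr66D at 279 against 30.6 and Cpr72Ea, though low, at 28.3 against 2.21.

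**Figure D4:**
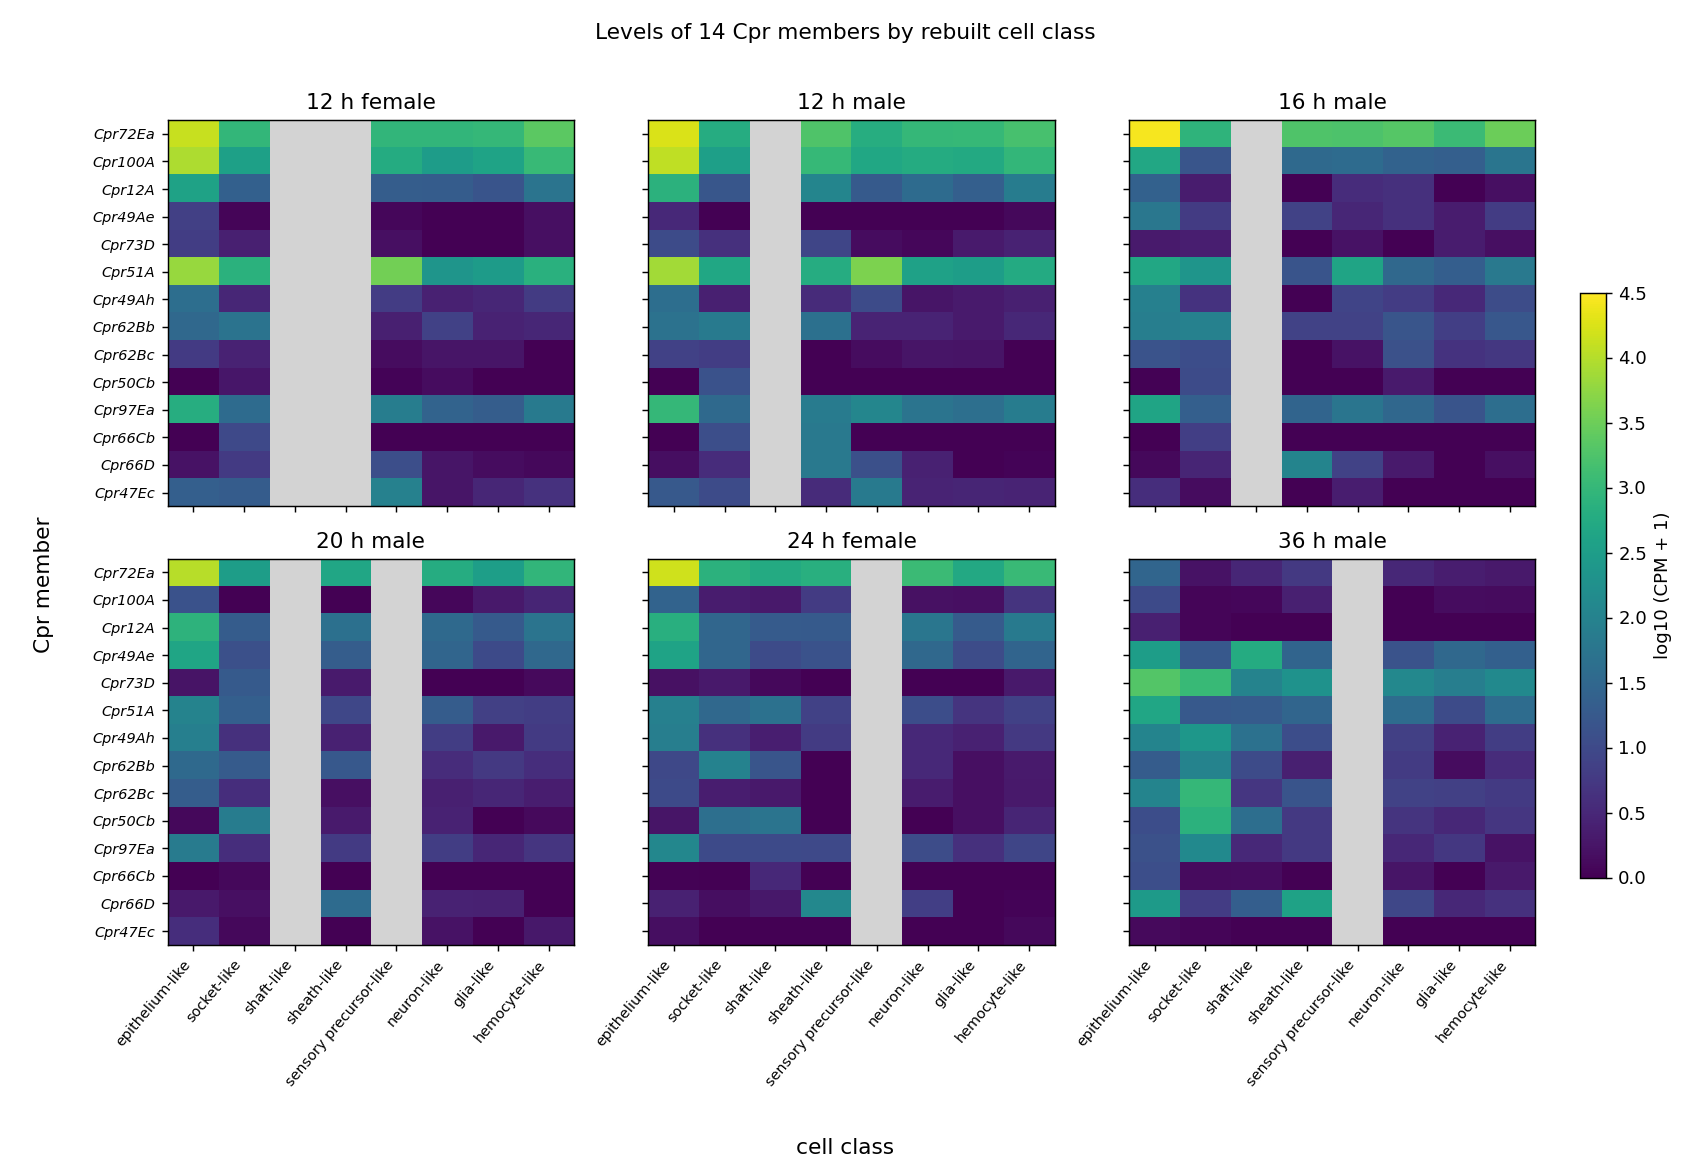
Levels of 14 members in the marker-defined cell classes of each library, as log10 of CPM with 1 added, with grey for a class not found in that library. The epithelium-like column is brightest for Cpr72Ea and Cpr100A at 12 h, while at 20 h and 36 h Cpr50Cb is brightest in socket-like cells (75.4 and 776 CPM) and at 24 h Cpr66D in sheath-like cells (127 CPM).

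Several 12 h members had a large share of their UMIs in 1 cluster. In the 12 h female 1 epithelium-like cluster of 673 cells, led by Lcp65Ac and Edg78E among other genes, held 38.1% of the UMIs of Cpr100A, 38.2% of Cpr51A, 59.6% of Cpr65Ec, 56.4% of Cpr72Eb and 42.0% of Cpr97Eb. In the male a cluster of 706 cells, also with Lcp65Ac among its leading genes, held 26.2% of Cpr100A, 38.8% of Cpr65Ec and 32.0% of Cpr72Eb. Other 12 h members lay elsewhere, with 96.3% of Cpr67Fa1, 80.5% of Cpr49Ac and 48.9% of Cpr31A in an unnamed cluster of 234 cells in the female, marked by sr and Tsp.

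Bristle organs held a small set of members. The socket cell makes the cuticular ring around a bristle and the shaft cell the bristle itself. In socket-like cells 2 of 12, 2 of 15, 2 of 11, 2 of 7, 2 of 9 and 6 of 11 members were high, against 8.12%, 7.9%, 10.7%, 8.94%, 10.0% and 8.65% of all features. Cpr50Cb was at 0.841 CPM in them at 12 h in the female, from 5 UMIs, then at 12.4, 9.51, 75.4, 42.8 and 776 CPM, against 0.0419, 0.0249, 0.0925, 1.80, 3.73 and 12.7 in all other cells. Socket-like cells were above the rest in every library, and from the 12 h male on by 11.5-fold to 429-fold. At 36 h, 48.3% of the 362 socket-like cells had a Cpr50Cb UMI and 3.37% of the 326 hemocyte-like cells, with median depths of 14875 and 8385.5 UMIs.

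Socket-like cells at 36 h also held other members. Cpr62Bc was at 990 CPM in them and 67.0 in other cells, and 44.4% of its UMIs in the library came from 1 cluster of 36 socket-like cells. Cpr62Bb was at 102 against 14.2 CPM, Cpr97Ea at 136 against 26.6 and Cpr49Ah at 240 against 82.2, and the last was Cpr78Cb with 20 UMIs. At 24 h Cpr62Bb was at 96.8 against 7.59 CPM, with 300 of its 653 UMIs there from 1 cell. At 20 h Cpr73D was at 18.0 against 0.937 CPM, ahead of its high level at 36 h. As a share of UMIs, the family held 0.0509% in socket-like cells at 20 h and 0.337% at 36 h, when it was near the 0.350% of epithelium-like cells.

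Sheath-like cells, which wrap the dendrite of the sensory neuron, carried Cpr66D. From the 12 h male to the 36 h male it was at 65.0, 106, 36.0, 127 and 390 CPM in them, against 1.60, 0.731, 0.988, 1.58 and 168 elsewhere. They lay above the rest by 36.6-fold to 145-fold before 36 h and by 2.32-fold at 36 h, when epithelium-like cells also had a high level. At 24 h, 52.4% of the 82 sheath-like cells and 0.190% of the 527 hemocyte-like cells had a UMI, with medians of 7679 and 14383 UMIs per cell. In this class 2 of 10, 1 of 2, 1 of 5, 1 of 2 and 1 of 2 members were high, against 12.3%, 16%, 11.8%, 14.2% and 18.8% of all features. The second member at 12 h was Cpr66Cb, with 50 UMIs in 4 of 76 cells. In the 12 h and 16 h males the sheath-like clusters passed 3 sheath markers (pros, nompA, ct) and also 3 shaft markers (sv, f, jv). There the larger mean fold of the markers decided the name, so sheath and shaft cells are not told apart with certainty at these ages.

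Sensory precursor-like cells, which give rise to these organs, held Cpr66D at 11.2 and 11.4 CPM at 12 h against 0.768 and 1.03 elsewhere. Cpr47Ec was at 92.9 and 71.2 CPM in them against 18.7 and 13.5, and Cpr31A, in the male, at 25.8 against 10.4. These were 2 of 12 and 3 of 14 members, against 19.6% and 14.9% of all features, so the counts are near the background. Cpr66Cb was high in socket-like cells at 12 h and 16 h, where its UMIs lay in 4, 11 and 5 cells, and Cpr66D was high there in the 12 h female with 29 UMIs.

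Shaft-like cells were found at 24 h and 36 h, with 1 of 8 and 2 of 13 members high, against 15.2% and 13.5% of all features. Cpr49Ae was at 9.46 CPM in them at 24 h, under the 319 of other cells, and at 596 CPM at 36 h, over the 262 of other cells. At 36 h it had a UMI in 251 of 321 shaft-like and 26 of 326 hemocyte-like cells, whose median depths were 29460 and 8385.5 UMIs. At 24 h Cpr50Cb was at 52.1 against 2.73 CPM in shaft-like cells, but in 14 of 387 cells, with 111 UMIs in the highest. The other member at 36 h was Cpr49Af, a neighbour of Cpr49Ae, with 23 UMIs.

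Muscle-like and hemocyte-like cells gave few calls. In muscle-like cells Cpr67B alone was high, as 1 of 2 members at 20 h (14.9 against 6.97 CPM) and 1 of 3 at 24 h (19.8 against 5.15), where 9.05% and 8.92% of all features were. The muscle-like cells of 24 h were 1 cluster led by CG33557 and CG5080, with Him, htl and zfh1 past the marker rule but not Mef2, twi or Act57B, and 81 of the 113 cells at 20 h were of this kind. At 12 h and 16 h clusters led by CG33557 had too few markers for a name and the muscle-like cells were others, with twi and Act57B, so muscle-like values are not compared across ages. In hemocyte-like cells at 24 h 4 of 13 members were high, against 25.5% of all features, near the background. They were Cpr60D with 27 UMIs in 25 cells, Cpr30B with 20 in 19, Cpr76Bc with 37 in 30 and Cpr49Ag with 91 in 19, of which 52 were in 1 cell.

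Regions of the epithelium were set by cells with at least 2 UMIs of patterning genes, each compared with the other epithelium-like cells. Joint cells were marked by dysf and TfAP-2, dorsal cells by bi, ventral cells by H15, mid and wg, posterior cells by en, inv and hh (compared with ci-positive anterior cells), and further groups by nub and by Lim1, ara and caup. Cells just under the mark were common, such as 667 dorsal cells at 36 h with 1 UMI fewer beside 2493 inside, so ratios compare enriched groups. Depth differed as well, with medians of 6415 UMIs in joint cells and 8897 in the others at 36 h.

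Cpr12A was higher in dorsal cells until 24 h. There it was at 728, 1591, 52.1, 1714 and 1520 CPM from 12 h to 24 h, against 236, 506, 17.1, 308 and 222 in other epithelium-like cells. Dorsal cells were higher in each of these 5 libraries, by 3.05-fold to 6.84-fold, including the 16 h male with its low level. Posterior cells were above anterior cells by 2.67-fold, 3.52-fold and 3.94-fold at 12 h and 16 h, and by 1.09-fold at 20 h. Cpr12A was also called high in joint and in Lim1 cells, each in at least 1 library. In dorsal cells 4 of 19, 3 of 19, 3 of 16, 4 of 25, 4 of 24 and 5 of 31 members were high, against 2.09%, 1.69%, 0.974%, 1.6%, 1.31% and 2.1% of all features.

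Cpr49Ae was higher in posterior cells. It was at 12.2, 4.64, 81.0, 753, 710 and 620 CPM in them, against 1.28, 0.566, 54.4, 297, 240 and 339 in anterior cells. The posterior cells were above in all 6 libraries, by 9.40-fold and 8.02-fold at 12 h and by 1.49-fold to 2.96-fold later. Cpr49Ae was also called high in dorsal and in joint cells, each in at least 1 library. Its neighbours Cpr49Af and Cpr49Ag were at 1.89 CPM each in posterior cells at 24 h, against 0.841 and 0.612. In posterior cells 3 of 22, 4 of 19, 1 of 15, 5 of 22, 6 of 27 and 6 of 22 members were high, against 2.16%, 1.92%, 1.5%, 1.27%, 1.37% and 2.04% of all features. In the other direction, anterior over posterior, 0 of 20, 4 of 22, 1 of 17, 0 of 21, 1 of 28 and 1 of 19 were high. The shares of all features there were 1.44%, 1.72%, 1.81%, 1.59%, 1.62% and 1.59%. The 5 anterior members were Cpr31A, Cpr35B, Cpr47Ea, Cpr78Cb and Cpr92F, so in the 12 h male the 2 directions had similar counts.

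Cpr62Bb and Cpr62Bc lie 5116 bases apart on 3L. In joint cells Cpr62Bc was at 10.8, 9.49, 52.1, 88.3, 27.4 and 201 CPM, against 2.93, 5.63, 7.39, 3.89, 3.38 and 83.3, with the highest ratio at 20 h, 22.6-fold. In ventral cells it was at 8.38, 11.5, 33.3, 63.4 and 24.2 CPM from 12 h to 24 h, against 2.27, 3.03, 8.77, 2.00 and 1.32, up to 31.6-fold at 20 h. At 36 h this order turned, with 36.0 CPM in ventral cells against 118, and 202 in dorsal cells against 25.4. Cpr62Bb was high in joint cells from 12 h to 24 h, for example at 104 against 17.2 CPM at 20 h, but at 36 h it was at 7.83 against 22.1 CPM.

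In joint cells 3 of 19, 2 of 19, 4 of 15, 8 of 21, 5 of 23 and 7 of 23 members were high, against 1.69%, 1.39%, 3.31%, 4.56%, 3.97% and 5.27% of all features. In ventral cells the counts were 1 of 23, 1 of 23, 1 of 15, 3 of 21, 5 of 27 and 5 of 22, against 1.12%, 0.784%, 1.0%, 1.58%, 1.64% and 1.59%. At 12 h and 16 h Cpr62Bc was the 1 ventral member. At 36 h Cpr73D was at 4456 CPM in joint against 1358 in other cells, Cpr66D at 808 against 139 and Cpr66Cb at 41.5 against 3.29. These late members were thus all higher in joint cells, Cpr66Cb by 12.6-fold.

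The groups of nub and of Lim1, ara and caup were small at late ages, with 28 and 76 cells at 36 h. They were also small at 16 h, with 40 and 214 cells. At 16 h an unnamed cluster of 778 cells had Lim1, nub, ara and caup among its leading genes. It lay outside the epithelium-like class, so the 16 h values of these groups leave it out. In nub cells 2 of 16, 3 of 15, 1 of 6, 3 of 12, 4 of 12 and 4 of 8 members were high, against 1.56%, 1.79%, 3.86%, 4.47%, 4.85% and 8.74% of all features. In Lim1 cells 3 of 20, 1 of 18, 1 of 10, 4 of 17, 4 of 14 and 5 of 11 were, against 2.29%, 1.94%, 1.63%, 2.31%, 3.97% and 5.72%. Cpr62Bb was high in nub cells of all 6 libraries, at 106, 170, 490, 138, 41.8 and 613 CPM against 21.8, 32.9, 80.5, 30.2, 8.05 and 16.3. Cpr64Ad was at 21.2 and 17.0 CPM in Lim1 cells at 12 h against 1.97 and 1.51, and it was carried by few cells, 172 of 10750 in the female.

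At 36 h Cpr49Aa was at 792 CPM in nub and 683 in Lim1 cells, by 39.6-fold and 42.2-fold over the rest. It was also at 74.9 CPM in posterior cells against 5.16 in anterior ones, as was Cpr56F at 47.0 against 4.32. These ratios cover epithelium-like cells alone and leave out the cluster described next, which held most UMIs of both genes.

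**Figure D5:**
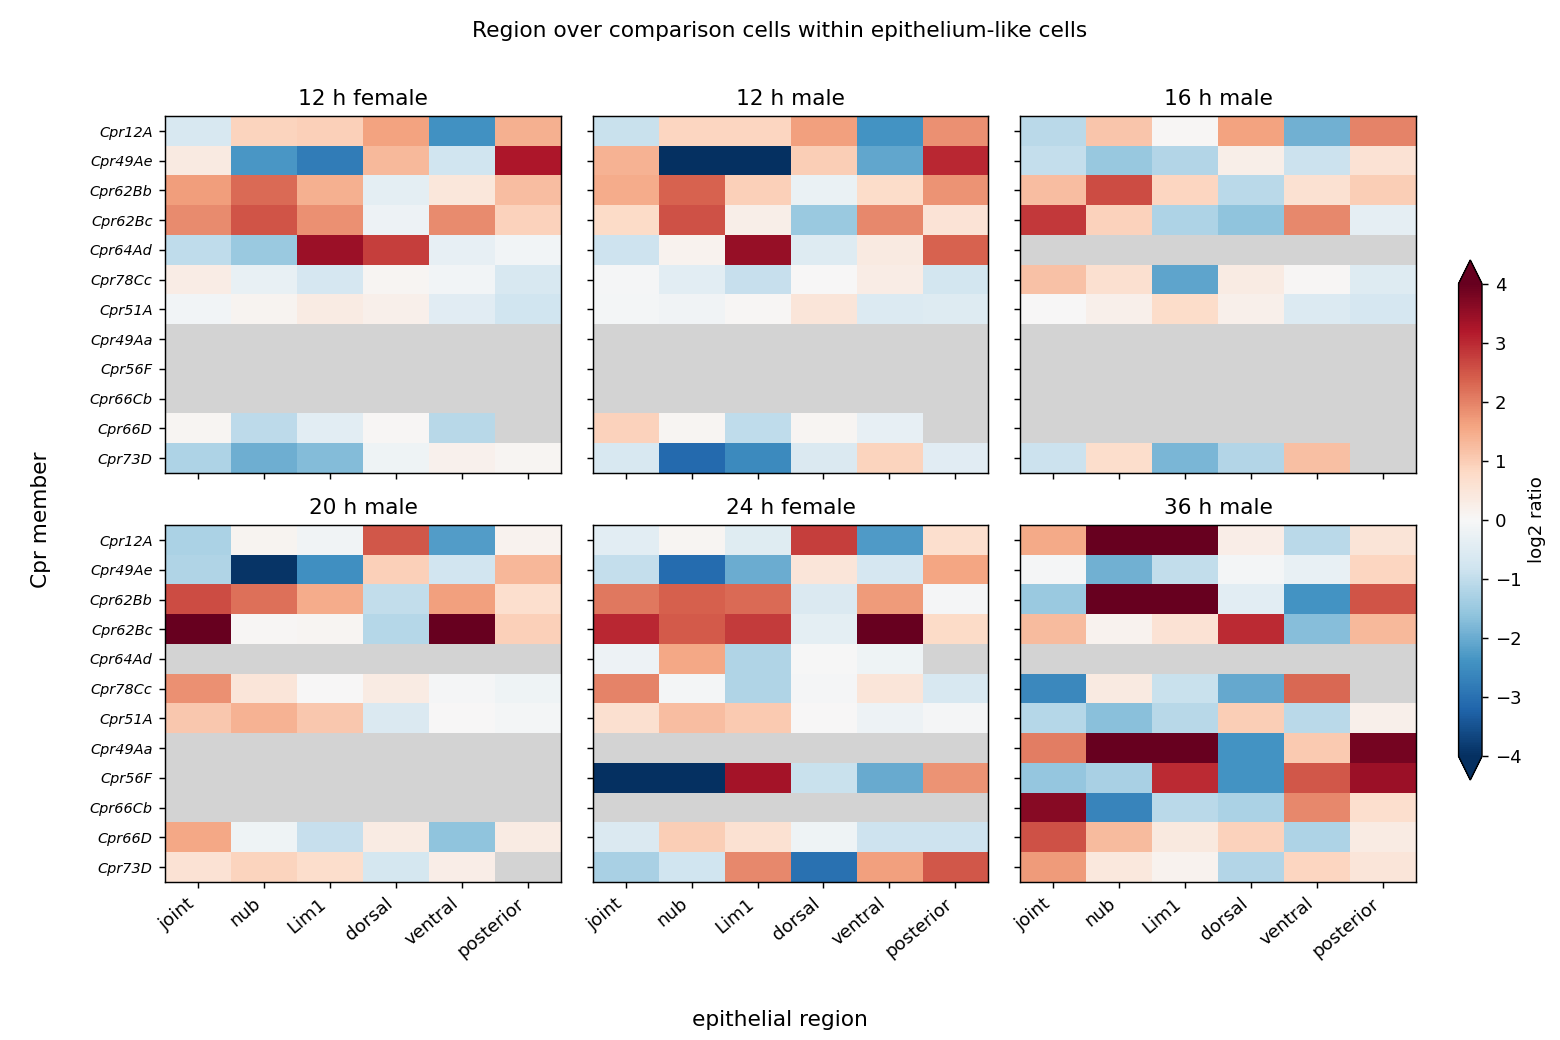
log2 ratio of CPM in each region over its comparison cells, within epithelium-like cells, for 12 members in each library; red is higher in the region, blue lower, grey has under 20 UMIs on both sides, and colours saturate at -4 and 4. Cpr12A is red in the dorsal column of the first 5 panels, by 3.05-fold to 6.84-fold, Cpr62Bc is red in the joint column in every panel and changes from red to blue in the ventral column at 36 h.

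Clusters in which sr and Tsp, both known from tendon cells of the epidermis, passed the marker rule were singled out after the values were seen. They carried all 10 epithelial markers by the naming rule, but none of these was among their leading genes. The leading genes included sr, with Tsp except at 36 h, in all but the 36 h cluster of 456 cells. There they included the shaft marker sha. As sr and Tsp were the 2 tendon markers that passed, under the 3 a class needed, the clusters stayed unnamed and outside the epithelium-like class. They numbered 234 and 242 cells at 12 h, 153 at 16 h, 85 at 20 h and 449 and 456 in 2 clusters at 36 h. In the 12 h male sr was at 389 CPM in its cluster and 3.19 in the other cells, and Tsp at 260 and 2.92. Members high in these clusters were 9 of 19, 6 of 16, 7 of 14, 6 of 10, 6 of 14 and 2 of 9, against 4.53%, 4.24%, 7.8%, 7.77%, 3.78% and 4.74% of all features.

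The clusters held most UMIs of some members. Cpr67Fa1 was at 292 CPM in the 12 h female cluster against 0.535 in other cells, at 403 against 0.515 in the male and at 165 against 0.814 at 16 h, which is 96.3%, 96.4% and 83.2% of its UMIs. In the female cluster 35 of 234 cells had a Cpr67Fa1 UMI, so a minority of cells carried it. Cpr67Fa1 and its neighbour Cpr67Fa2, 1013 bases away, have proteins of equal length, 134 residues. Their sequences were not compared, so how their reads were split is uncertain. Cpr67Fa2 had 666 of 770 and 721 of 784 UMIs there at 12 h. Cpr62Bb was at 329, 497, 1026 and 445 CPM in the clusters from 12 h to 20 h, by 12.6-fold to 15.9-fold over other cells. In the 36 h cluster of 449 cells it was lower than elsewhere, at 11.1 against 19.4 CPM.

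Cpr56F had 65 of its 71 UMIs in the 12 h female cluster, in 6 cells, and 104 of 113 in the 16 h cluster, in 8 cells. At 24 h no cluster passed for both genes, and 96.4% of Cpr56F UMIs lay in 1 epithelium-like cluster of 31 cells led by trol and Gasp. At 36 h the cluster of 449 cells, with wg, Wnt6, sr and H15 among its leading genes, held 88.4% of Cpr56F at 7578 CPM against 31.3, and 83.0% of Cpr49Aa at 2946 against 19.0. There 208 of its cells had a Cpr56F UMI. In each of these 4 libraries Cpr56F was thus mostly in 1 group of cells. The cluster holding most of it was epithelium-like at 24 h and unnamed at 36 h, and the log2 ratio of the 36 h to the 24 h library, 4.94 over all cells, was 0.20 in epithelium-like cells alone.

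Cpr50Ca and Cpr66Cb also sat mostly in 1 cluster at 36 h. Cpr50Ca had 79.0% of its UMIs in an epithelium-like cluster of 601 cells led by serp, a chitin deacetylase gene. Cpr66Cb had 77.8% in a cluster of 990 cells led by Obp99a and TfAP-2, at 81.3 CPM. Cpr73D was more spread, with 31.6% in the same cluster at 7077 CPM, and so was Cpr66D, with 35.1% at 2699 CPM in a cluster of 291 cells with esg and dysf among its leading genes. Cpr97Ea, a 12 h member, had 52.5% of its 36 h UMIs in an unnamed cluster of 149 cells, at 1197 against 15.8 CPM.

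The gene models share features that the selection did not use. Of 64 members with more than 1 coding exon, 43 have a first coding exon of at most 30 bases in the Ensembl annotation of BDGP6, 67.2% against 11.3% of 11060 protein-coding genes. The median protein length is 179.5 residues, with 93 for Cpr60D and 1231 for Cpr76Bd at the ends, against 391 over all protein-coding genes. By arm, 35 members lie on 3L, 21 on 2R, 5 each on 2L and 3R and 4 on X. With gaps of at most 50 kb, 49 members lie in 12 runs of at least 2 members.

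Neighbours in a run had the same age class more often than members at large. Of 21 adjacent pairs of measured members, 11 had the same class, 52.4%, against 32.3% of all 1275 pairs of members, given as a description. Among these 11 were Cpr97Ea with Cpr97Eb (12 h), Cpr62Ba with Cpr62Bb (16-24 h) and Cpr50Ca with Cpr50Cb (36 h). Several of the 11 hold a member whose peak was not clear, such as Cpr65Ea at 1.02-fold, and Cpr62Bb changed class without the 16 h male. Adjacent means next among measured members, so Cpr64Aa and Cpr64Ad count as a pair although Cpr64Ab and Cpr64Ac lie between them. The pairs outside the 11 differed in class. In the run at 72E, Cpr72Ea was highest at 16 h, Cpr72Eb at 12 h and Cpr72Ec at 36 h, although 186 bases part the last pair. In the run at 49A, Cpr49Aa and Cpr49Ah at its ends were highest at 36 h, and between them Cpr49Ac at 12 h, Cpr49Ae at 20 h and Cpr49Af and Cpr49Ag at 24 h.

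Genes that act with the Cpr proteins were followed over the same span. Of 25 listed genes with the same consensus under other names, 18 had enough UMIs, and 5 were higher and 12 lower past 2-fold in the 36 h than in the 12 h male, with a median log2 ratio of -6.07, against 30.8% and 28.1% of all features. Edg84A, an ecdysone-dependent pupal cuticle gene, was at 395, 505, 16.9, 1.82, 1.92 and 0.675 CPM. Ccp84Ad was at 303, 300, 32.1, 2.68, 2.10 and 0.251 CPM. Both had the course of Cpr100A and Cpr65Ec. At 36 h the highest gene of this list was Edg78E, at 1.71 CPM, so none reached the level of Cpr73D.

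Of 17 genes of chitin synthesis and assembly, 1 was higher and 6 lower at 36 h than in the 12 h male, against 30.8% and 28.1% of all features. The count of lower genes is near that share, and the count of higher genes is under it. The median log2 ratio was -0.83. The higher was obst-E, a chitin-binding protein gene, at 1.73 CPM in the 12 h male and 49.6 at 36 h. The deacetylase genes serp and verm were at 329 and 257 CPM in the 12 h male and at 22.3 and 37.4 at 36 h. Gasp, another chitin-binding protein gene, was at 504, 610, 95.9, 30.6, 24.0 and 473 CPM, so its 36 h level was close to those of 12 h.

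Of 8 tanning genes, which harden and colour cuticle, 7 had enough UMIs, and 6 were higher and 0 lower at 36 h than in the 12 h male. The shares of all features were 30.8% and 28.1%, and the median log2 ratio of the tanning genes was 2.33. Pu, which makes a cofactor of the pathway, was at 0.988 CPM in the 12 h male and 59.0 at 36 h, and e at 2.40 and 53.1. Between the sexes at 12 h, 4 of 7 were lower in the male, against 9.85% of all features. From the 20 h to the 36 h male, 5 of the 7 were higher and 2 lower, against 21.3% and 13.8% of all features. The 2 lower were ple, at 21.5, 1.75, 5.65, 50.1, 3.04 and 7.89 CPM, and Ddc, at 74.1, 14.2, 30.3, 51.2, 6.95 and 20.5 CPM. Both were also lower at 36 h than in the 12 h female, so their rise depends on the library compared. Of 12 ecdysone-timed transcription factors 4 were higher and 1 lower at 36 h, against 30.8% and 28.1% of all features, with a median log2 ratio of 0.08. The count of higher genes is near its share, and the count of lower genes is under it. Blimp-1 was at 3.98, 4.22, 15.6, 42.4, 63.3 and 749 CPM, Hr3 at 0.568 in the 12 h male and 78.4 at 36 h, and br, the lower one, at 22.6 and 4.64.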

How the data were processed

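The authors deposited UMI counts per gene and cell, made with Cell Ranger 7.0.0 on build BDGP6 per the submitters' processing notes; the counts are whole numbers and not normalized. 2 further matrices of the series correspond to no labelled sample and are not analysed here. Cells with at least 500 genes and at most 10% mitochondrial UMIs were kept, and the highest Scrublet scores removed (0.8% per 1000 cells). Each library was clustered alone with scanpy 1.11.5 (2000 variable genes, 30 components, 15 neighbours, Leiden resolution 1), with Cpr genes left out of both steps. A class needed 3 markers at 2-fold in 10% of cells, with 10 CPM added. Clusters where none passed were named epithelium if 6 of its 10 markers, in 10% of cells, were at most 2-fold below other cells. A name was dropped where another class had more markers among the 10 leading genes. Counts were summed to CPM with exact Poisson intervals, and ratios, with 0.5 counts added, have exact binomial intervals. Intervals and floors (3 counts) cover counting error only. The ratio code was checked on simulated counts.

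Members and lists were chosen with earlier results of these data known. Members are named by level, contrast, class and region rank, and others were chosen after their values were seen. All 70 members matched the gene name table and the annotation. No sequences were used here.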

Additional observations from a re-analysis of the deposited data

How the results depend on the processing

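No paired analysis was possible because each group is 1 library, and for the same reason no replicate could be left out. Under the alternatives run, 186 summary counts stayed within 1.5 times of the reported value and 51 did not. Of the log2 ratios of named members and the family's shares, 98 stayed within their counting interval and 94 did not. The ratios were taken only for members named by rank, which leaves out Cpr30F, Cpr65Ea, Cpr67Fa1 and Cpr67Fa2. None of the ratios taken changed sign. In epithelium-like cells alone that of Cpr56F was 0.20 in place of 4.94 and that of Cpr66Cb 9.16 in place of 2.60. The Cpr66Cb value rests on a 12 h male level near the counting floor there, so its size is uncertain. The age of the highest library did change for the members named next. TMM and DESeq2 size factors moved the 20 h library by 0.13 and 0.14 log2 units and the others by less than 0.1, and under both 50 of 51 members kept their age class, with Cpr30F the exception. Without the 16 h male or the 24 h female, 47 of 51 kept it, all but Cpr62Bb, Cpr78Cc, Cpr35B and Cpr78Cb or Cpr92A, Cpr49Af, Cpr47Eg and Cpr60D, and with at least 1000 genes per cell 48, not Cpr30F, Cpr65Ea and Cpr78Cb. In epithelium-like cells alone 44 of 51 did, Cpr67Fa1, Cpr67Fa2, Cpr65Ea, Cpr11B and Cpr30F changed class and 2 had too few UMIs.

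The counts rest on the minimum of 20 UMIs. With at least 1 UMI, 30 members were highest at 16-24 h, 8 were higher and 12 lower in the 12 h male than female, and 30 were higher at 16 h than at 12 h. With at least 100 UMIs, 3 were lower in the 12 h male than female, 5 higher at 16 h than 12 h, 5 at 20 h than 16 h and 16 at 36 h than 12 h. High members were then 0 in hemocyte-like and 0 in muscle-like cells, 1 in sheath-like and 5 in socket-like cells, and by region 9 joint, 5 nub, 7 Lim1, 9 dorsal, 6 ventral and 1 anterior. With cells thinned to 2000 UMIs, 1 was lower in the 12 h male, 5 and 5 were higher at 16 h and 20 h, 17 at 36 h than 12 h and 9 at 24 h than 12 h, with 0 high members in hemocyte-like, 0 in muscle-like, 1 in sheath-like, 5 in socket-like and 1 in shaft-like cells.

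With a fold of 4, 1 was higher and 2 lower in the 12 h male than female, 5 higher at 16 h, 5 higher and 9 lower at 20 h, 9 higher at 24 h, 0 high in muscle-like and 1 in shaft-like cells. With a fold of 1.5, 10 were higher in the 12 h male, 16 lower at 36 h than 20 h, and 23 dorsal, 17 ventral and 13 anterior. In epithelium-like cells 4 were higher in the 12 h male and 7 at 16 h, and with at least 1000 genes per cell also 7 at 16 h. Asking for a 2-fold peak left 5 members at 16-24 h. Other settings gave 5 sensory precursor-like members (resolution 0.5), 6 shaft-like (marker fold 1.5), 2 muscle-like and 6 sheath-like (doublets kept), 8 anterior (1 region UMI) and 4 nub (3 region UMIs). The cause of these shifts was not tested beyond what each setting does to the counts. Depth limits the 16 h male most, at 0.0507 CPM for 3 counts.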
